A study of Homo sapiens and Mus musculus with 56 samples.

Results

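This account compares the glioblastoma cell lines that express hepatocyte growth factor (HGF) strongly with those that hardly express it, on human arrays of vehicle-treated cells. The series holds 56 Affymetrix gene arrays, and the comparison uses 14 of them. The HGF-high class has 8 arrays, 3 of U87M2, 3 of U118 and 2 of SF295. The HGF-low class has 6 arrays, 3 of DBM2 and 3 of U251M2. The 5 lines are human glioblastoma lines, and the labels describe the human arrays as cultured cells given the solvent dimethyl sulfoxide (DMSO) for 7 days. Another 14 human arrays hold the same lines, with the same numbers of repeats, after 7 days of V-4084, which blocks the MET kinase selectively (the sources used here do not give its final concentration). The other 28 are mouse arrays of subcutaneous tumours that the 5 lines formed in nude mice.

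The classes were chosen by the level of HGF on the vehicle arrays themselves. Differences on those 14 arrays are therefore given as a description. Counts of limma calls on them appear only where dependence on the processing is described, and are no test. Tests of the difference between the classes were run on the 14 V-4084 arrays, which the choice did not use but which come from the same 5 lines. Class differences on those arrays also include any difference between the classes in the response to V-4084. Tests of the change with V-4084 used all 28 human arrays, so the vehicle arrays that chose the classes entered them. Each class is a set of whole cell lines, 3 against 2, so the level of HGF and any other property that these lines happen to share cannot be told apart. The labels do not say that repeats were separate cultures, so p-values measure the spread between arrays of a line. On 3 of the V-4084 arrays the title names DBM2 while the source and cell line fields name SF295. They were kept with DBM2. Results without them are also given for MET, for the calls of the separated genes, and for some gene lists and their named members. They are not given for the AHR targets or, gene by gene, for the named response genes. The mean HGF level of these 3 arrays differed by -0.07 from that of the DBM2 vehicle arrays. The levels of those vehicle arrays, given below, lay far under those of SF295.

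HGF is a secreted ligand, and MET is its receptor tyrosine kinase. Bound HGF brings MET molecules together, and the receptor then signals through RAS and MAP kinases, PI3 kinase and STAT3 to drive growth, movement and invasion. A glioblastoma cell that makes both can stimulate its own receptor, an autocrine loop.

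HGF was bright in each HGF-high line and near the bottom of the range in each HGF-low line. Its log2 level on the vehicle arrays was 11.50, 11.39 and 11.48 in U87M2, 10.05, 10.39 and 10.14 in U118, and 10.14 and 9.91 in SF295, against 5.41, 5.39 and 5.31 in DBM2 and 5.19, 5.06 and 5.17 in U251M2. U87M2 was the highest of the 5 lines, and U118 and SF295 differed by less than their spread. The nearest lines of the 2 classes, SF295 and DBM2, lay 4.66 log2 units apart (1 unit is 2-fold). With V-4084 the difference between the classes was 5.30 ± 0.09 (standard error, SE).

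MET did not follow this pattern, although its line mean was higher in every HGF-high line, narrowly so beside DBM2. Its level was 10.45, 10.70 and 10.64 in U87M2, 10.64, 10.74 and 10.68 in U118, and 10.81 and 10.96 in SF295, against 10.41, 10.54 and 10.34 in DBM2 and 8.81, 8.71 and 8.79 in U251M2. DBM2 arrays overlapped U87M2 arrays, and U251M2 stood below all other lines. The class difference on the V-4084 arrays, 0.92 ± 0.14 (limma, adjusted p = 5.77e-05), rested on U251M2. Without that line it was 0.32, with an adjusted p of 0.194. Without the DBM2 arrays whose labels disagree it was 1.52 (adjusted p = 1.32e-07).

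**Figure D1:**
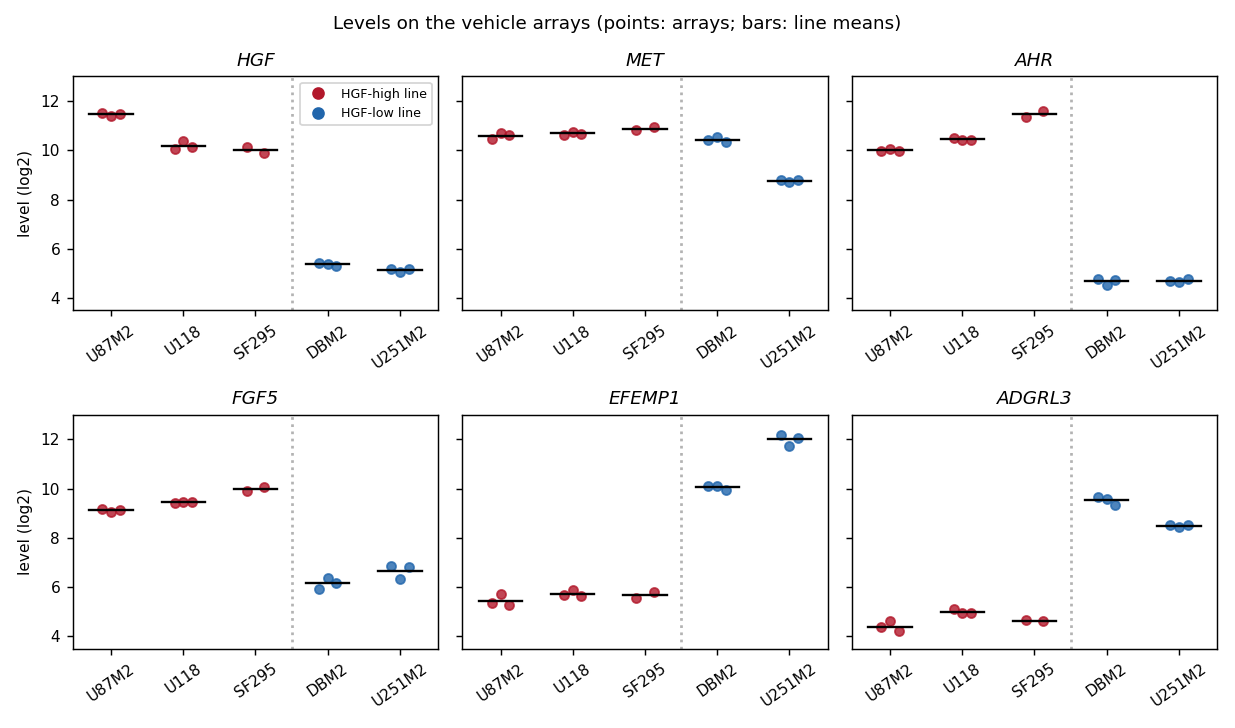
Log2 levels on the vehicle arrays for HGF, MET, AHR, FGF5, EFEMP1 and ADGRL3, with 1 point per array and a bar at each line mean. The HGF-high lines (red) are left of the HGF-low lines (blue). HGF, AHR, FGF5, EFEMP1 and ADGRL3 have no overlap between the classes, while the MET level of DBM2 (mean 10.43) lies beside that of U87M2 (10.60).

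The sequences just before the transcription start of 4 of the most widely separated genes are shown here, so that the letters searched for motifs can be seen. All are from RefSeq on GRCh38.p14, 250 bases up to the annotated start, read 5′ to 3′ on the gene's strand. HGF (chr7:81770048-81770297, minus strand) and AHR (chr7:17298402-17298651, plus strand) were the most widely separated genes on the HGF-high side. ADGRL3 (chr4:61200076-61200325, plus strand) and KCNIP1 (chr5:170353237-170353486, plus strand) were high in the HGF-low lines, and both were among the 12 with the widest gap there. Capitals mark a match to GCGTG, the core bound by the AHR-ARNT dimer, or to GGAATG, the core bound by TEAD factors, on either strand.
HGF: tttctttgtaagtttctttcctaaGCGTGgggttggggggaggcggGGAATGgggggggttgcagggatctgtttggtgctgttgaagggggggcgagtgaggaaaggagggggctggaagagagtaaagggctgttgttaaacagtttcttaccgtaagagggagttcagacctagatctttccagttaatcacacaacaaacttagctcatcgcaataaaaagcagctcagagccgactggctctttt
AHR: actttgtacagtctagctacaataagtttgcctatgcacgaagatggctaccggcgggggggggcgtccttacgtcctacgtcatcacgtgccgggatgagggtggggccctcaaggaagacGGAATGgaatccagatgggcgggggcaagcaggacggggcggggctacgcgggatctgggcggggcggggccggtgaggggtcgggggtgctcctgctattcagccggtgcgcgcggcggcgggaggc
ADGRL3: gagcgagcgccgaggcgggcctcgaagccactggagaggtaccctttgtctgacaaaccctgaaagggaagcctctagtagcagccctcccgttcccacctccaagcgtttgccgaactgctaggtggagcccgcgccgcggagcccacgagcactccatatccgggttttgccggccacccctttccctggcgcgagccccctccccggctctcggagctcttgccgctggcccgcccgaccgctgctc
KCNIP1: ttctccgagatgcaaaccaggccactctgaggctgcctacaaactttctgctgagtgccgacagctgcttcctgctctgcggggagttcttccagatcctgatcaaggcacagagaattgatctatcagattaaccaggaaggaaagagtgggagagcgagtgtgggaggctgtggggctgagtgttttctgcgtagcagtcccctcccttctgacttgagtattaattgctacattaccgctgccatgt

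The HGF window held 1 GCGTG and 1 GGAATG, the AHR window 1 GGAATG, and those of ADGRL3 and KCNIP1 none of the motifs searched. The windows also differed in base composition, with 6 CpG in HGF, 24 in AHR, 23 in ADGRL3 and 6 in KCNIP1. EFEMP1, which led the HGF-low side, had no entry in the promoter table.

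A shared motif was also looked for across all separated genes with a promoter entry, 35 of those higher and 78 of those lower in the HGF-high lines. The AP-1 core TGANTCA, the site of FOS and JUN dimers, was present before 5 of 35 higher genes (14.3%) and 2 of 78 lower genes (2.6%), against 4.9% of all 14237 promoters. Those 5 genes were FAM180A (chr7:135748843-135748873, minus strand), DNAJC15 (chr13:43023382-43023412, plus strand), F2RL2 (chr5:76623422-76623452, minus strand), LPXN (chr11:58578299-58578329, minus strand) and SLC9A9 (chr3:143848631-143848661, minus strand), shown here with 12 bases on each side of the match in capitals. SLC9A9 had a second match (chr3:143848568-143848598, minus strand), given on the last line.
FAM180A: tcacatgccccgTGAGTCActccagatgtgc
DNAJC15: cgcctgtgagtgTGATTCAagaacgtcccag
F2RL2: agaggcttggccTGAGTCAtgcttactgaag
LPXN: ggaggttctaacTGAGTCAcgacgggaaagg
SLC9A9: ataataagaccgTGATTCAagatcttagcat
SLC9A9: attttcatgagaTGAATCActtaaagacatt

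GGAATG stood before 17.1% of the higher and 5.1% of the lower genes, against 10.0% of all promoters. GCGTG stood before 31.4% of the higher and 42.3% of the lower genes, against 39.7% of all. The TATA box TATAAA was found before 8.6% of the higher, 7.7% of the lower and 8.6% of all. The sets also differed in base composition, with a median CpG per 100 bases of 5.6 for the higher, 7.6 for the lower and 7.2 for all. Whether the motif shares went with base composition was not tested. No overlap of one motif with another was removed. A match describes letters in these windows and does not show a factor bound there, and with few genes these shares were not tested.

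A gene was called separated when every line mean of one class lay above every line mean of the other, with at least 1 log2 unit between the nearest lines. Of 18417 genes, 49 (0.266%) were separated with higher levels in the HGF-high lines and 102 (0.554%) with lower levels there. Without the minimum gap, the line means of 2149 genes were higher and those of 1818 genes lower in every HGF-high line. The arrays themselves did not overlap between the classes for any of the 151 separated genes. The median gap was 1.55 for the 49 and 1.51 for the 102, beside a median SD within a line of 0.13. The least steady were MME, with an SD of up to 0.767 in 1 line, and GPM6B, with up to 0.538. Just inside the limit lay OSBPL1A at 1.017 and ADAMTSL1 at 1.032 on the higher side, with LNX1 at 0.983 and ARRB1 at 0.999 just outside. On the lower side ADAMTS4 at -1.021 and AGPS at -1.026 were just inside, and NRP2 at -0.968 and SH3BP4 at -0.974 just outside.

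The classes are not 2 compact groups. SF295 differed at least 2-fold from DBM2 in 1471 genes and from U251M2 in 1385 genes. Both counts were lower than those against its own class (1515 against U87M2 and 1508 against U118). U87M2 differed from the HGF-low lines in 1815 genes (DBM2) and 1972 genes (U251M2). SF295 was the HGF-high line nearest to the other class for 26 of the 49 and 66 of the 102 separated genes. When each line counted as 1 replicate, 3 against 2, limma on the line means of the V-4084 arrays gave 1523 genes at an unadjusted p under 0.05 and 0 at an adjusted p under 0.05 (lowest adjusted p = 0.0837). The genes below therefore describe these 5 lines.

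Genes are named by size of gap, or as members of pathway lists. The remaining genes named, list members beyond 4 a list among them, were picked after their values were seen. Fewer cells with a transcript and less transcript per cell cannot be told apart in RNA of whole cultures.

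AHR, the aryl hydrocarbon receptor, a ligand-activated transcription factor best known as the dioxin sensor, had the widest gap of all genes, 5.31. Its level was 9.98, 10.04 and 9.99 in U87M2, 10.52, 10.43 and 10.41 in U118, and 11.35 and 11.60 in SF295, against 4.76, 4.53 and 4.75 in DBM2 and 4.69, 4.63 and 4.76 in U251M2. AHR thus divided the lines as sharply as HGF, but in another order, with SF295 highest. On the V-4084 arrays the class difference was 6.04 ± 0.10 (limma, adjusted p = 1.28e-15).

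Other secreted signals were high with HGF. FGF5, a fibroblast growth factor, read 9.18, 9.06 and 9.14 in U87M2, 9.40, 9.47 and 9.45 in U118, and 9.92 and 10.08 in SF295, against 5.93, 6.36 and 6.17 in DBM2 and 6.84, 6.33 and 6.83 in U251M2. WNT5A, a ligand of non-canonical Wnt signalling, averaged 9.18, 9.57 and 8.94 in U87M2, U118 and SF295, against 5.93 and 7.42 in DBM2 and U251M2. NDP, whose product norrin activates the receptor FZD4, averaged 9.62, 10.42 and 10.05, against 8.14 and 7.65 in the same order. All arrays of the HGF-high lines lay above all those of the HGF-low lines for these 3 ligands.

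IL1R1, the signalling receptor for interleukin-1, averaged 7.89, 7.90 and 8.47 in U87M2, U118 and SF295, against 5.52 and 5.61 in DBM2 and U251M2. BDKRB1, a bradykinin receptor, averaged 8.47, 7.63 and 7.60, against 5.88 and 5.80. F2RL2, a receptor of the thrombin receptor family, averaged 7.93, 7.70 and 7.86, against 6.16 and 5.50. The 2 HGF-low lines were alike for IL1R1 and BDKRB1, differing by less than 0.10. TLR4, the receptor for bacterial lipopolysaccharide, was separated the other way, averaging 5.85, 5.85 and 8.08 in U87M2, U118 and SF295, against 9.42 and 9.28 in DBM2 and U251M2.

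Some matrix genes typical of fibroblasts lay on the HGF-high side. Of 13 fibroblast markers, 3 were separated with higher levels there (0.266% of all genes) and 0 with lower levels. These were COL3A1, DPT and FAP. The markers LUM and DCN, given below, were lower in SF295 than in DBM2. COL3A1, a fibrillar collagen chain, read 10.09, 10.57 and 9.90 in U87M2, 11.02, 11.05 and 10.94 in U118, and 9.97 and 10.20 in SF295, against 7.67, 7.54 and 7.85 in DBM2 and 7.56, 7.39 and 7.34 in U251M2. DPT, dermatopontin, a small matrix protein that binds decorin, averaged 9.43 ± 0.49, 10.42 ± 0.08 and 9.87 ± 0.20 in U87M2, U118 and SF295 (SD), against 7.02 ± 0.13 and 6.38 ± 0.48 in DBM2 and U251M2. FAP, a surface serine protease of activated fibroblasts, averaged 8.87, 9.40 and 9.19, against 6.72 and 5.34. The HGF-low lines were unequal for some matrix genes. COL6A3, a collagen VI chain, averaged 11.60, 12.07 and 12.06 in U87M2, U118 and SF295, against 9.79 in DBM2 and 7.26 in U251M2. For MFAP4, a protein of elastic fibres, the HGF-high lines were unequal, with 10.65 and 11.13 in U87M2 and U118 and 7.54 in SF295, against 5.87 and 6.24 in DBM2 and U251M2.

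Enzymes acting on the matrix and the cell surface were separated in both directions. XYLT1, which starts the sugar chains of proteoglycans, averaged 9.78, 10.50 and 9.01 in U87M2, U118 and SF295, against 6.58 and 6.49 in DBM2 and U251M2. ENPP2, autotaxin, which makes the signalling lipid lysophosphatidic acid, averaged 7.29, 7.78 and 8.26, against 4.89 and 4.83. MME, the peptidase neprilysin, averaged 7.78, 9.72 and 7.75, against 5.42 and 5.28. PCOLCE and PCOLCE2, which speed the trimming of procollagen, and EXT1, which extends heparan sulfate, were also separated, with gaps of 1.06, 1.55 and 1.06. Lower in the HGF-high lines were the matrix proteases ADAMTS4, ADAMTS9 and ADAMTS16 (gaps of -1.02, -1.24 and -1.03), the collagen cross-linking enzyme LOXL4 (-1.36) and the chondroitin sulfotransferase CHST3 (-1.06). On the HGF-high side, CA12, a cell-surface carbonic anhydrase, averaged 10.33, 10.06 and 10.00 in U87M2, U118 and SF295, against 7.34 and 7.94. The other leading genes of that side were FAM180A (gap 3.07), DNAJC15, a mitochondrial co-chaperone (2.64), ZNF521, a zinc finger regulator of progenitor cells (2.46), and PCDH18, a protocadherin (2.34).

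**Figure D2:**
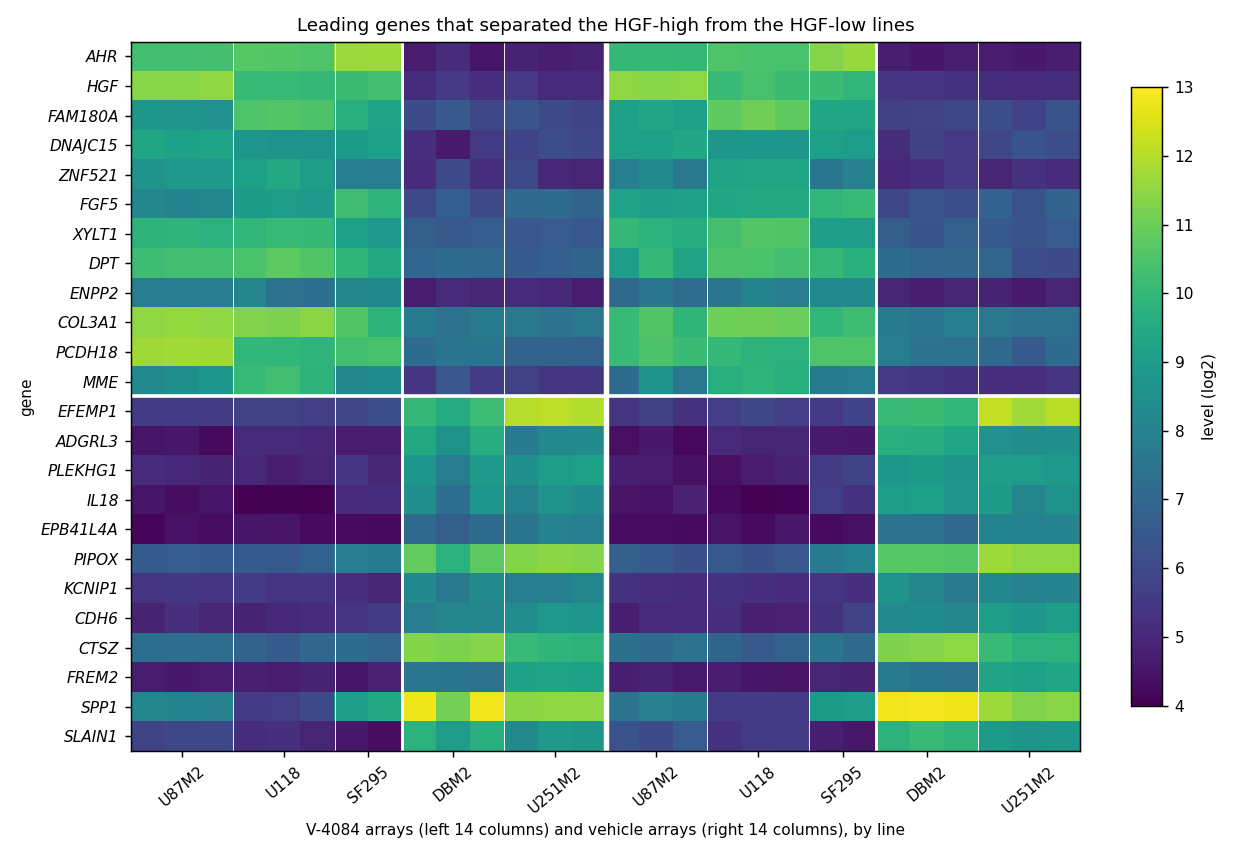
Log2 levels of the 12 most widely separated genes in each direction on all 28 human arrays, with V-4084 arrays left and vehicle arrays right, and the HGF-high lines left of the HGF-low lines within each. Colours compare arrays along a row and not genes with each other, since probe sets differ in brightness. AHR averages 10.01 to 11.47 in the HGF-high and 4.68 to 4.69 in the HGF-low vehicle columns, and the V-4084 columns show the same division.

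The HGF-low lines were marked by another set of genes. EFEMP1, fibulin-3, a secreted glycoprotein that binds the EGF receptor, had the widest gap on this side, 4.32. It read 5.34, 5.71 and 5.27 in U87M2, 5.66, 5.90 and 5.64 in U118, and 5.54 and 5.80 in SF295, against 10.09, 10.12 and 9.95 in DBM2 and 12.19, 11.75 and 12.07 in U251M2. It was thus uniform in the HGF-high lines and unequal between the HGF-low lines. SPP1, osteopontin, a secreted ligand of integrins and CD44, averaged 7.67, 5.58 and 8.95 in U87M2, U118 and SF295, against 12.82 and 11.46 in DBM2 and U251M2. IL18, a cytokine, averaged 4.57, 4.05 and 5.48, against 8.91 and 8.53. TGFA, a ligand of the EGF receptor, averaged 6.14, 5.68 and 5.90, against 7.82 and 8.74.

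Receptor tyrosine kinases other than MET were separated in this direction. IGF1R, the receptor of insulin-like growth factors, read 7.40, 7.41 and 7.38 in U87M2, 6.93, 6.81 and 7.17 in U118, and 7.38 and 7.82 in SF295, against 11.09, 11.14 and 11.07 in DBM2 and 9.40, 9.34 and 9.34 in U251M2. EPHA3 averaged 4.98, 6.02 and 7.06 in U87M2, U118 and SF295, against 8.47 and 10.12 in DBM2 and U251M2. EPHA4 averaged 7.37, 7.92 and 6.56, against 9.07 and 9.11. Both are ephrin receptors. NTRK2, the receptor of the neurotrophin BDNF, averaged 5.08, 4.98 and 5.09, against 7.35 and 6.39. Adaptors of such receptors were separated as well, SHC4 with a gap of -1.97 and GRB10, which dampens insulin and IGF receptors, with -1.19 (negative where the HGF-high lines were lower).

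Adhesion genes followed. ADGRL3, an adhesion G protein-coupled receptor of the latrophilin family, read 4.36, 4.62 and 4.20 in U87M2, 5.09, 4.94 and 4.94 in U118, and 4.66 and 4.62 in SF295, against 9.67, 9.59 and 9.34 in DBM2 and 8.54, 8.45 and 8.51 in U251M2. Its relatives ADGRL2 and ADGRV1 were separated with gaps of -2.37 and -2.14. CDH6, a cadherin, averaged 4.97, 4.96 and 5.55 in U87M2, U118 and SF295, against 8.26 and 8.92 in DBM2 and U251M2. FREM2, a basement membrane protein, averaged 4.76, 4.58 and 4.90, against 7.50 and 9.25. The desmosomal cadherins DSG2 and DSC2, neighbours on chromosome 18, were separated with gaps of -1.85 and -1.25, the neural adhesion molecule NRCAM with -1.99 and the integrin subunit ITGB8 with -1.50. PLAT, the tissue plasminogen activator, averaged 9.17, 9.67 and 8.99, against 10.89 and 11.60.

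Regulators of neural and positional identity were also higher in the HGF-low lines. POU3F2, a neural transcription factor, averaged 6.34, 6.21 and 6.37 in U87M2, U118 and SF295, against 7.96 and 9.38 in DBM2 and U251M2. GPM6B, a neural membrane proteolipid, averaged 5.59, 5.53 and 6.49, against 8.36 and 9.47. NR2E1, the neural stem cell receptor TLX, had a gap of -1.88, PROX1 of -1.83 and SOX21 of -1.16. HOXB3 and HOXB9, members of 1 homeobox cluster on chromosome 17, averaged 7.13, 5.97 and 7.54 (HOXB3) and 6.33, 6.27 and 7.22 (HOXB9), against 9.61 and 9.10 (HOXB3) and 8.87 and 8.57 (HOXB9). Further leading genes were PLEKHG1 (gap -3.08), EPB41L4A (-2.84), PIPOX, a peroxisomal oxidase (-2.81), CTSZ, a lysosomal protease (-2.62), and SLAIN1, a microtubule protein (-2.46).

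The V-4084 arrays hold the same lines again, in cells not used for the choice. On those arrays 55 genes (0.299%) were separated with higher and 91 (0.494%) with lower levels in the HGF-high lines. Of the 49 higher genes, 38 were separated again, and of the 102 lower genes, 80. Line means still did not overlap for all 49 higher and for 101 of the 102 lower genes. The exception was LONRF2, a RING finger protein. In limma's test on the V-4084 arrays all 49 were higher (largest adjusted p = 3.55e-08) and all 102 lower (largest adjusted p = 0.00058). That test called 2996 of 18417 genes (16.3%) higher and 2808 (15.2%) lower, so a call by itself is common between these lines. With gaps of at least 1 and little spread within a line, calls on the same lines were close to certain. They show that the lines kept their differences and are no test of the classes. Differences were also of similar size, with a median of 2.22 on V-4084 and 2.38 on vehicle arrays for the higher genes, and of -2.07 on V-4084 and -2.31 on vehicle arrays for the lower genes. Without the 3 DBM2 arrays whose labels disagree, all 151 were again called the same way.

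**Figure D3:**
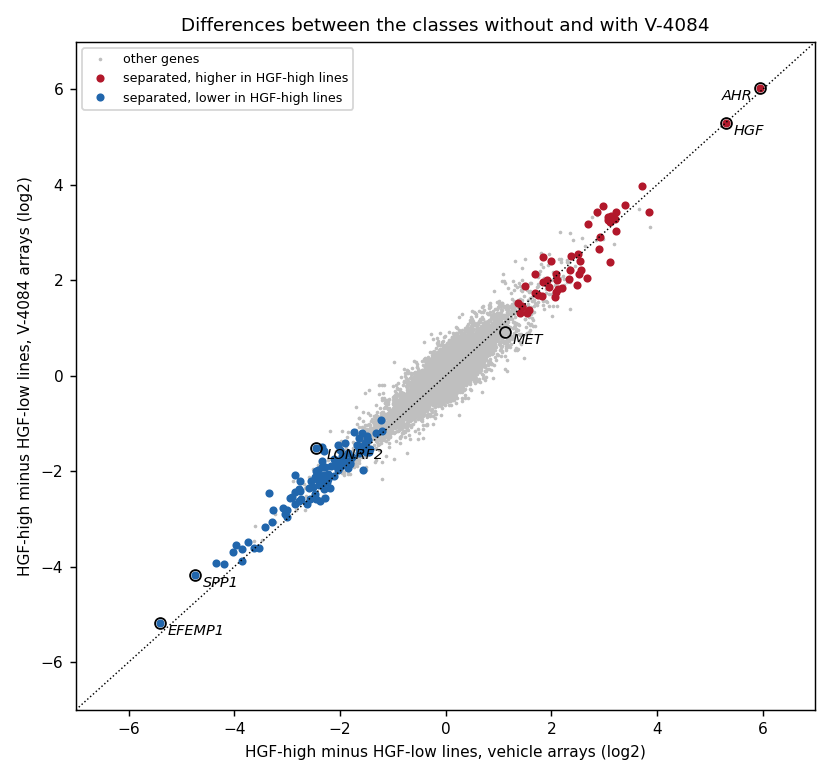
Mean of the 3 HGF-high lines minus mean of the 2 HGF-low lines for every gene, on vehicle arrays (horizontal, log2) and V-4084 arrays (vertical, log2). The dotted line marks equal differences. Separated genes (red and blue) lie along it, from EFEMP1 (-5.41 on vehicle and -5.19 on V-4084 arrays) to AHR (5.96 and 6.04).

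Gene lists were read on the V-4084 arrays against those background shares, with the vehicle median beside each. The 3 V-4084 arrays with disagreeing labels are all those of DBM2, so counts without them set the HGF-high lines against U251M2 alone. Those counts are given where they differ by over 1.5 times or where a named gene's call or direction changed. In the list of the HGF-MET axis, 4 of 27 measured members were higher and 10 lower (median difference -0.16 on V-4084 and -0.05 on vehicle arrays). The higher ones were HGF, MET, the coreceptor NRP1 (1.01 ± 0.11, limma, adjusted p = 1.47e-06) and the docking protein GAB1 (0.42 ± 0.11, adjusted p = 0.00712), which turned to -0.43 (adjusted p = 0.00654) without the DBM2 arrays, while NRP1 became 2.34. The lower ones included PLAT, PLAU (-1.06 ± 0.10, adjusted p = 5.07e-07), a protease that can activate HGF, the inhibitor of HGF activation SPINT1 (-1.02 ± 0.09, adjusted p = 3.70e-07, and -0.27 with an adjusted p of 0.0678 without DBM2), and the integrin pair ITGA6 (-2.53 ± 0.15, adjusted p = 2.08e-09) and ITGB4 (-2.54 ± 0.10, adjusted p = 1.60e-11), which can associate with MET. The adaptors GRB2 and SHC1 were not called, with differences of -0.05 ± 0.12 and 0.02 ± 0.09.

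Of 35 receptor tyrosine kinases, 7 were higher and 16 lower (median -0.18 on V-4084 and -0.11 on vehicle arrays). The higher ones included the platelet-derived growth factor receptors PDGFRB (2.72 ± 0.09, limma, adjusted p = 3.12e-12) and PDGFRA (1.40 ± 0.13, adjusted p = 2.81e-07), the collagen receptor DDR2 (1.38 ± 0.08, adjusted p = 1.42e-09) and EGFR (0.49 ± 0.08, adjusted p = 0.000236). PDGFRA (0.11, adjusted p = 0.590) and EGFR (0.17, adjusted p = 0.249) were not called without DBM2. The lower ones were led by EPHA3 (-2.81 ± 0.11) and IGF1R (-2.54 ± 0.12). Receptor ligands divided evenly, 12 higher and 11 lower of 31 (median -0.12 on V-4084 and -0.03 on vehicle arrays).

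Genes that MAP kinase signalling induces were mostly lower, 2 higher and 16 lower of 23 (median -0.71 on V-4084 and -0.42 on vehicle arrays). They included the feedback inhibitors SPRY2 (-1.98 ± 0.13, limma, adjusted p = 5.13e-09) and DUSP6 (-1.41 ± 0.12, adjusted p = 1.19e-07) and the factor ETV4 (-1.55 ± 0.12, adjusted p = 4.52e-08). EPHA4 was the separated member. Without the DBM2 arrays the list again had 2 higher and 16 lower (median -0.49). Class differences on V-4084 arrays include any unequal response, and 6 of the 23 had a lower response in the HGF-high class. On vehicle arrays DBM2 was the highest line for SPRY2, which read 7.98, 7.09 and 6.22 in U87M2, U118 and SF295, against 9.65 in DBM2 and 7.58 in U251M2. SPRY2, DUSP6 and ETV4 were called lower without the DBM2 arrays too, with differences of -0.97, -0.85 and -0.90. Hypoxia and glycolysis genes were mostly lower on V-4084 arrays, 4 higher and 14 lower of 26, but their median was -0.48 there and -0.09 on vehicle arrays.

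Matrix glycoproteins and proteoglycans were mostly higher, 23 higher and 8 lower of 40 (median 0.59 on V-4084 and 0.40 on vehicle arrays). The higher ones included MFAP4 (3.98 ± 0.14, limma, adjusted p = 4.43e-12) and the small proteoglycans DCN (3.37 ± 0.11, adjusted p = 2.47e-12) and BGN (3.33 ± 0.10, adjusted p = 6.52e-13). DCN nevertheless overlapped between the classes on vehicle arrays, at 8.05, 10.88 and 4.77 in U87M2, U118 and SF295, against 5.56 and 4.53 in DBM2 and U251M2. Collagens were 12 higher and 5 lower of 24 (median 0.31 on V-4084 and 0.37 on vehicle arrays), with COL11A1 (-2.28 ± 0.09, adjusted p = 1.26e-11) against the trend, and 10 higher and 8 lower without DBM2. Matrix proteases and their inhibitors were 14 higher and 9 lower of 27 (median 0.42 on V-4084 and 0.19 on vehicle arrays), and 16 higher and 5 lower without DBM2.

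HOX genes were mostly lower, 1 higher and 19 lower of 24 (median -0.74 on V-4084 and -0.79 on vehicle arrays). Without DBM2, 2 were higher and 16 lower. The higher one with DBM2 was HOXD13 (0.41 ± 0.14, limma, adjusted p = 0.0301). Apart from the separated pair, HOXB8 was lower by class (-2.03 ± 0.10, adjusted p = 1.52e-10) through DBM2, with vehicle levels of 6.27, 6.22 and 6.55 in U87M2, U118 and SF295, against 9.54 in DBM2 and 6.84 in U251M2. Without DBM2 its difference was -0.97. Genes of the same HOX cluster are neighbours and are not independent entries.

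Neural stem cell and proneural genes were 2 higher and 18 lower of 27 (median -0.64 on V-4084 and -0.59 on vehicle arrays). SOX2, the stem cell factor (-2.82 ± 0.10, limma, adjusted p = 4.19e-12), had vehicle means of 5.94, 6.18 and 8.72 in U87M2, U118 and SF295, against 7.95 in DBM2 and 11.26 in U251M2, so SF295 was above DBM2. PTPRZ1, a receptor phosphatase of glial progenitors, read 4.47, 4.47 and 5.39, against 5.66 and 11.09, so U251M2 alone was high, and its class difference was -3.16 ± 0.10, or -5.82 without DBM2. The astrocyte filament gene GFAP was likewise high in U251M2 alone among the 5 lines, at 11.41, against 6.50 in DBM2 and 6.56, 6.64 and 6.73 in the HGF-high lines. VIM was bright in all 5, between 11.86 and 12.19.

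Cadherins and other adhesion genes were 5 higher and 13 lower of 25 (median -0.41 on V-4084 and -0.59 on vehicle arrays), and integrins 3 higher and 9 lower of 18 (-0.33 on both), or 5 higher and 10 lower without DBM2. The other lists had between 0 and 15 members higher and between 4 and 15 lower. G2/M cell cycle genes had none higher and 4 lower of 25 by limma (median -0.23 on V-4084 and 0.11 on vehicle arrays) but 14 lower without DBM2. Astrocyte genes had 3 higher and 5 lower of 16 with DBM2, and 1 higher and 10 lower without it. Cytokines and chemokines had 11 higher and 5 lower of 32 with DBM2, and 9 higher and 8 lower without it.

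**Figure D4:**
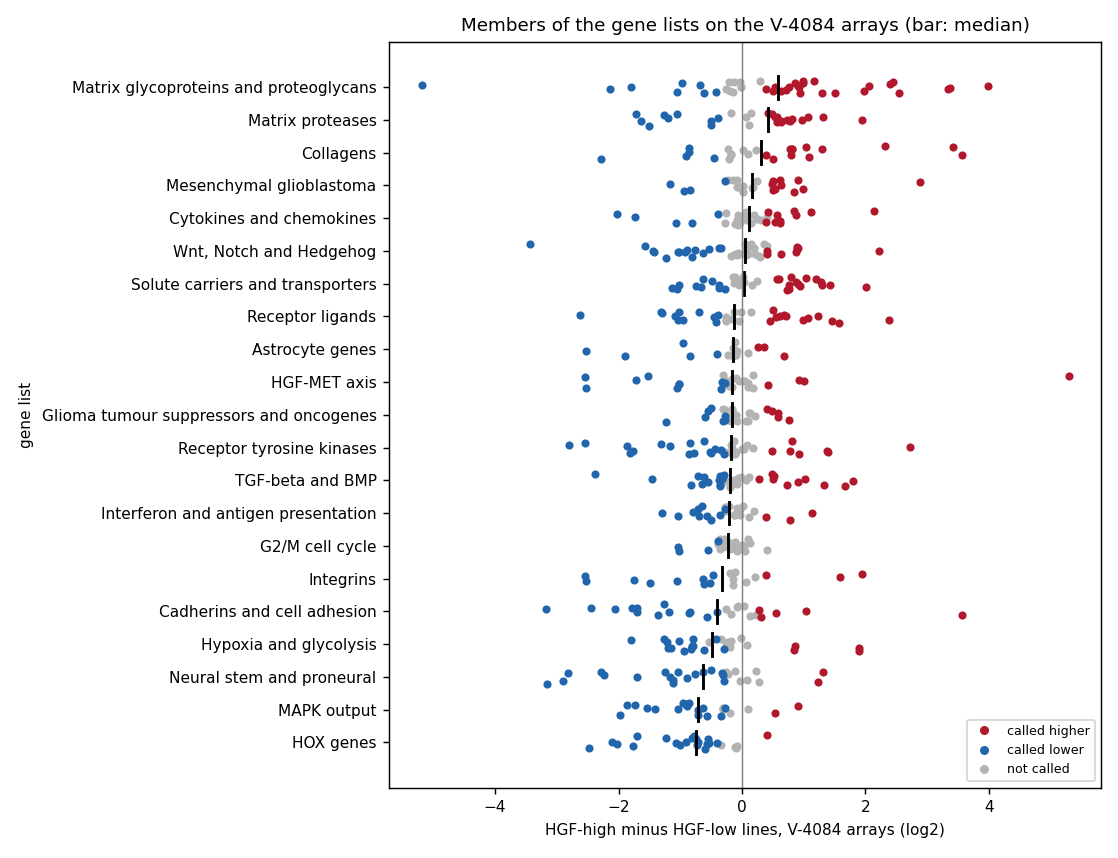
Class difference on the V-4084 arrays (HGF-high minus HGF-low lines, log2) for each measured member of 21 gene lists, 1 point per gene and a bar at the list median. Red points were called higher and blue points lower by limma, and grey points were not called. HOX genes (median -0.74) lie mostly left of 0, and matrix glycoproteins and proteoglycans (median 0.59) mostly right of it.

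Markers of fibroblasts moved with the HGF-high class. Of 13, 10 were higher and 2 lower on the V-4084 arrays, and COL3A1, FAP and DPT were separated. Without DBM2, 8 were higher and 1 lower. The mean vehicle level of the 13 was between 8.20 and 10.19 in the HGF-high lines and between 7.34 and 7.84 in the HGF-low lines. The lines did not carry the markers as a block, since LUM, lumican, averaged 8.37, 11.37 and 4.22 in U87M2, U118 and SF295, against 8.47 and 4.52 in DBM2 and U251M2. The labels give these arrays as cultured tumour cells, and whether other cells contributed to the matrix genes was not tested. Markers of macrophages had mean levels of 6.14 to 6.44 in the HGF-high and 6.01 to 6.19 in the HGF-low lines, and 13 of 15, CD14, CSF1R, TYROBP and C1QA among them, lay below the median of all genes (7.13) in every line. The same was so for 10 of 13 endothelial markers, with mean levels of 6.10 to 6.43 in the HGF-high and 5.90 to 6.08 in the HGF-low lines.

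The mouse arrays, made from mice carrying vehicle-treated tumours of the same lines, hold probe sets for the mouse counterparts of these genes. The labels do not say how far human RNA reached these arrays. Signal from mouse and from human RNA cannot be told apart in these levels, and its source was not tested. Of 41 matched genes of the HGF-high side, 17 had mouse line means that did not overlap in the same direction, beside 10.8% of all 14333 matched genes, and none had a gap of 1 (median difference 0.19, and -0.04 over all matched genes). Of 98 matched genes of the other side, 60 did not overlap in the same direction, beside 15.7% of all matched genes, and 2 had a gap of at least 1 (median difference -0.34). Mouse Hgf averaged 7.02, 6.92 and 7.36 for U87M2, U118 and SF295, against 6.94 and 6.91 for DBM2 and U251M2, so it did not follow the human gene. Mouse Col6a3 ran the other way, at 8.78, 8.49 and 9.00, against 10.26 and 9.88. Further genes of the HGF-high side did so without overlap, among them Col3a1 (gap -0.2), Fap (-0.17) and Creb3l1 (-0.52). The level on the mouse Adgrl3 probe set, at 5.13, 5.10 and 5.38, against 6.66 and 6.58, ran the same way as that of human ADGRL3.

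The response to V-4084, the change of V-4084 against vehicle arrays within a line, differed between the classes for 421 genes. It was higher in the HGF-high class for 224 (1.22% of 18417) and lower for 197 (1.07%). The number depended on which lines were included. Without U87M2 no gene was called by limma, 98 were without DBM2, whose V-4084 arrays have the disagreeing labels, and 49 were without U251M2, while 956 were called without SF295. Single arrays moved it too, to 152 without SF295 vehicle replicate 1 and to 1527 without SF295 V-4084 replicate 1. Of the 23 genes that MAP kinase signalling induces, 6 had a lower and 0 a higher response in the HGF-high class (median -0.32, and -0.05 over all genes). The 6 included MYC (-0.75 ± 0.12, limma, adjusted p = 0.00173) and the cytokine LIF (-0.77 ± 0.14, adjusted p = 0.00482). Of the 40 matrix glycoproteins and proteoglycans, 8 had a higher and 0 a lower response (median 0.17). FOSL1, an AP-1 subunit induced by MAP kinase signalling, changed by -2.08 with V-4084 in U87M2, by -0.08 in U118 and by 0.06 in SF295, against 0.24 in DBM2 and 0.43 in U251M2 (difference between classes -1.04 ± 0.11, adjusted p = 1.49e-05). HMGA1, a chromatin protein of proliferating cells, changed by -2.35, -0.28 and 0.14, against 0.17 and 0.31 in the same order (-1.08 ± 0.16, adjusted p = 0.000804). H1-5, a replication-dependent linker histone, changed by -0.81, -1.43 and -0.78 in U87M2, U118 and SF295, against 0.03 in DBM2 and 0.07 in U251M2 (-1.06 ± 0.26, adjusted p = 0.0315).

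CALCRL, the receptor subunit for CGRP and adrenomedullin, changed by 1.99 in U87M2, 0.45 in U118 and 0.12 in SF295, against -0.28 in DBM2 and -0.51 in U251M2 (1.25 ± 0.20, limma, adjusted p = 0.00101). SESN3, a sestrin induced by FOXO factors, changed by 1.85, -0.01 and 0.20, against -0.39 and -0.57 (1.16 ± 0.18, adjusted p = 0.000804). HGF was not called (adjusted p = 0.991), with changes of -0.02, -0.14 and 0.17 in U87M2, U118 and SF295, against -0.07 in DBM2 and 0.08 in U251M2. MET changed by -1.06, -0.61 and 0.37, against -0.46 and 0.00, and its response did not pass the test of the difference (-0.20 ± 0.15, adjusted p = 0.497). Of the 49 higher genes, 3 had a higher and 2 a lower response in the HGF-high class, FGF5 (-0.73) and COL3A1 (0.56) among them. Of the 102 lower genes, 9 had a higher response, NRCAM (0.89) and ITGB8 (0.84) among them, and 1 a lower one. Over all genes, 1.22% had a higher and 1.07% a lower response. The 49 and the 102 were chosen on the vehicle arrays that the response subtracts. Their response counts therefore depend in part on that choice and are no test.

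**Figure D5:**
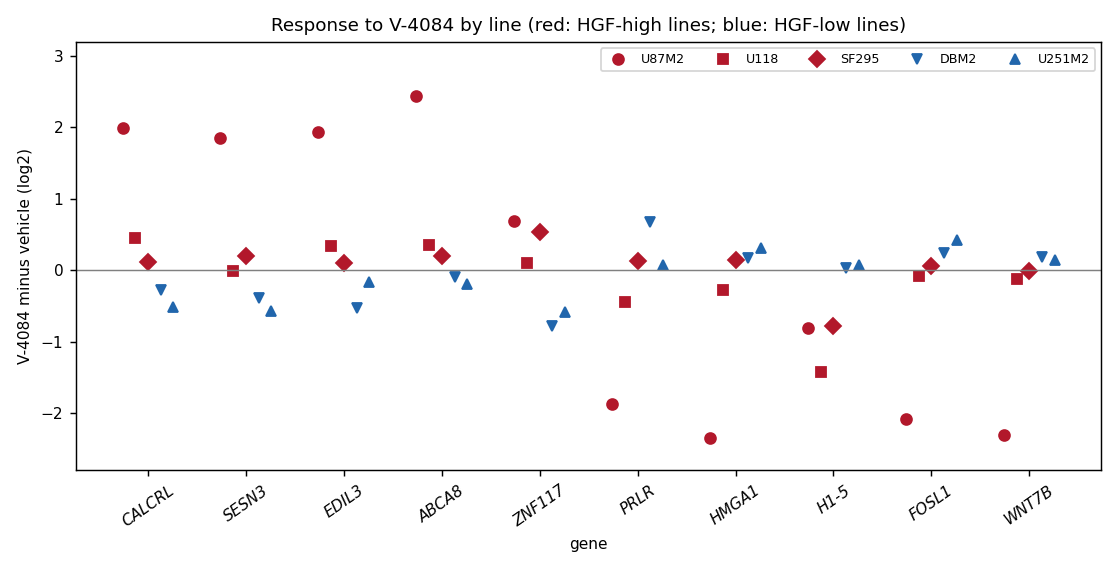
Change with V-4084 against vehicle (log2, difference of group means) in each line for the 5 called genes with the largest response difference in each direction. Red symbols are the HGF-high lines and blue symbols the HGF-low lines. U87M2 (circles) lies farthest from 0 for 8 of the 10 genes, such as ABCA8 at 2.44 and WNT7B at -2.31, while U118 is farthest for H1-5 at -1.43 and DBM2 for ZNF117 at -0.78.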

How the data were processed

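The deposited values are on a log2 scale, 1 per probe set and array. The submitters' processing notes name RMA and Partek without versions, and the values entered the fits as deposited. Of 33297 probe sets on the human platform, 19460 name 1 gene, 1754 several and 12083 none in the platform annotation, and the symbols of 19429 were updated through Entrez IDs. For a gene with several probe sets the one with the highest mean was kept, giving 18417 genes. Array medians ran from 6.65 to 6.87 (V-4084) and from 6.63 to 6.76 (vehicle), and 3 V-4084 arrays had an SD of values under 2.

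Line means were averaged with equal weights. limma 3.58.1 in R 4.3.3 (lmFit, eBayes) fitted the 5 line means of the V-4084 arrays (9 residual degrees of freedom), the 10 group means of 28 arrays for the response (18) and the 5 line means as replicates (3). P-values are two-sided and Benjamini-Hochberg adjusted over all genes, with calls at an adjusted p under 0.05. Named were HGF, MET, the 12 largest gaps in each direction, up to 4 members of each list and the 5 largest response differences in each direction. Further list members and separated genes were named after their values were seen. Predicted genes, open reading frame names, olfactory receptors, pseudogenes, small RNA genes and sex-linked markers were counted but not named. The scripts were tested on simulated data. The classes, gene lists, motifs and tests were chosen with earlier results of these data known. The fits and list counts without the DBM2 arrays whose labels disagree were added after the data were seen.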

Additional observations from a re-analysis of the deposited data

Results flagged for a closer look

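These 10 genes are given because the test of the difference itself, limma's contrast of the V-4084 response between the HGF-high and the HGF-low lines, called them. The response difference was 1.25 for CALCRL, 1.16 for SESN3, 1.14 for EDIL3, 1.14 for ABCA8, 1.12 for ZNF117, -1.10 for PRLR, -1.08 for HMGA1, -1.06 for H1-5, -1.04 for FOSL1 and -0.98 for WNT7B. The class means of the response were, for example, 0.86 ± 0.13 (SE) in the HGF-high and -0.39 ± 0.15 in the HGF-low lines for CALCRL. For FOSL1 they were -0.70 ± 0.07 and 0.34 ± 0.08 in the same order. These SEs measure the spread between arrays of a line and not the spread between lines. By line, the changes in U87M2, U118 and SF295 were 1.99, 0.45 and 0.12 for CALCRL and -2.08, -0.08 and 0.06 for FOSL1. Leaving out U87M2 ended all 10 calls (adjusted p from 0.533 to 0.620), with differences that stayed near their size for H1-5 (-1.16) and ZNF117 (1.00). The others were nearer to 0, at 0.68 for CALCRL, 0.57 for SESN3, 0.57 for EDIL3, 0.42 for ABCA8, -0.53 for PRLR, -0.32 for HMGA1, -0.35 for FOSL1 and -0.24 for WNT7B. EDIL3 encodes a secreted integrin ligand, PRLR the prolactin receptor, WNT7B a Wnt ligand and ABCA8 a lipid transporter.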

How the results depend on the processing

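Precision is limited by how many arrays and lines there are, since arrays have no read depth. RMA values carry no detection call, and in 31 of the 49 higher and 72 of the 102 lower genes every line on the dim side lay below the median of all genes (7.13), where differences may be understated. The 151 separated genes were 417 with a gap of at least 0.5 and 34 with a gap of at least 2. Their number ranged from 149 to 158 without single arrays and from 221 to 511 without a line, where fewer lines have to be separated, and the number called the same way on V-4084 arrays from 149 to 158 and from 221 to 510. With lines as replicates, 1 gene, KCNIP1, was called on the vehicle line means, which the choice of classes had used, so that call is no test. There were 0 genes among those above the median, 0 on V-4084 line means, 584 with the line as a random block, 0 or 1 without single arrays and 0 without any line. The vehicle contrast, given as a description since it used the arrays that chose the classes, called 7909 genes (6564 to 8362 over all settings tried). The V-4084 contrast called 5804, and 5111 to 6447 without single arrays and 4228 to 6181 without a line. Response differences numbered 421, and 152 to 1527 without single arrays (152 without SF295 vehicle replicate 1, 1527 without SF295 V-4084 replicate 1) and 0 to 956 without a line. The response difference of MET was not called and ran from -0.60 to 0.12, positive without U87M2 and without U251M2 (0.03). Repeat numbers do not pair the arrays (mean correlation of same-numbered deviations -0.024 on vehicle and -0.003 on V-4084 arrays, 7 and 8 of 26 above 0.1). With the replicate block, 7669 (vehicle), 5752 (V-4084) and 364 (response) genes were called. Of the single-gene checks, 674 of 675 for the V-4084 contrast kept direction and call, MET without U251M2 being the exception, as did 388 of 418 for the response. Probe set choice, quantile normalization, eBayes trend, arrays of narrow range and all 28 arrays in 1 fit kept each count within 1.5 times.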

Other observations

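AHR stood out beside HGF, and genes that AHR is known to induce were looked up after its values were seen. CYP1A1, its classical target, was low in all lines, at 5.47, 5.45 and 5.47 in U87M2, U118 and SF295, against 5.69 and 5.62 in DBM2 and U251M2, and was not called on V-4084 arrays (-0.24 ± 0.11 SE, limma, adjusted p = 0.117). CYP1B1 averaged 6.71 ± 0.26, 5.54 ± 0.20 and 6.32 ± 0.41 (SD), against 5.10 ± 0.09 and 5.45 ± 0.22, so U118 lay close to U251M2, and the class difference on V-4084 arrays was 1.78 ± 0.09 (adjusted p = 2.61e-10). TIPARP averaged 9.21, 8.88 and 8.43, against 7.96 and 8.58, so SF295 was below U251M2, and was called higher on V-4084 arrays (0.69 ± 0.13, limma, adjusted p = 0.000693). NQO1 averaged 10.15, 8.78 and 10.52, against 8.63 and 9.35, so U118 was below U251M2, and was called higher too (0.76 ± 0.09, limma, adjusted p = 3.42e-06). Of these 4 targets, 3 were thus called higher in the HGF-high class, beside 16.3% of all genes. DBM2 was the lowest line on vehicle arrays for all 3. Values without the DBM2 arrays whose labels disagree are not given for these targets. None of the 4 was separated as AHR was. ARNT, the partner of AHR, averaged 8.96, 8.69 and 8.66, against 8.40 and 8.79 (0.39 ± 0.10 on V-4084 arrays, limma, adjusted p = 0.00641).

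By chromosome, 15 of the 151 separated genes lay on chromosome 7 (9.9%, against 4.5% of all genes), 5 of them higher and 10 lower in the HGF-high lines. The 5 include AHR and HGF, the gene that chose the classes. MET lies on this chromosome too but was not separated. Chromosome 18 held 6 (4.0%, against 1.4%), and chromosome 19 held 2 (1.3%, against 7.1%). Several were neighbours with the same direction, such as HOXB3 and HOXB9, DSC2 and DSG2, PTPRM and ARHGAP28, OSBPL1A and ZNF521, PCOLCE2 and SLC9A9, and GRB10 and COBL. On chromosome 5, F2RL2, which lies within the span of IQGAP2, was higher in the HGF-high lines, while IQGAP2 was lower there. Copy number was not measured, and whether it moved with these genes was not tested.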
